A study of Mus musculus with 2 samples.

Results

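Interleukins are secreted cytokines, and each is read through a receptor built of a few subunits on the target cell. The genes named Il followed by a number cover ligands, receptor subunits, antagonists and binding proteins. Their counts were described here in RNA-seq of 3D cultures grown from mouse mammary basal cells. They were found by name among the 49492 genes of the count table. Of 83 matching names, the antisense gene Il1bos was left out, which left 82 genes. The cells were sorted by FACS as basal cells, which the study gates as lin- CD24+ CD29hi, from the mammary glands of adult female wild-type mice and grown in matrix gel in medium with EGF and an insulin supplement. There was 1 library from untreated cells (control) and 1 library from cells cultured with 10 ng/mL recombinant mouse TNF-α in 3D for 10 days. The labels do not give the time of the control separately, and they do not say how many mice or cultures went into a library. With 1 library per group no difference has a replicate check, and no p-value is given.

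The families differ in the receptor that reads them. Ligands of the IL-1 family bind a receptor that recruits a partner chain, IL-1RAP for IL-1, IL-33 and IL-36 and IL-18RAP for IL-18, and signals through MYD88 to NF-κB, the factor that TNF-α receptors also activate. Those of the IL-6 and IL-12 families, of the common γ chain family and of the IL-10 family signal through JAK kinases and STAT factors, and IL-17 receptors signal through the adaptor ACT1. In skin, gut and mammary epithelium, IL-33 and IL-18 are known as cytokines that epithelial cells make themselves, while most other interleukins are known from leukocytes.

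The libraries held 44462275 counts (control) and 53487087 counts (TNF-α), and the top 10 genes took 5.68% and 5.58% of them. Of the 82 genes, 47 had at least 10 counts summed over both libraries and were compared, against 20771 of all 49492 genes. Ratios were of CPM (library-scaled counts) scaled by the TMM method, on the log2 scale with a prior count of 2. Folds and intervals were computed without the prior count, so a fold and its log2 ratio differ where counts are low. A call, higher or lower, was made where a gene passed 2-fold and its exact 95% interval for counting error left out no change. The intervals, here given in brackets, do not cover the spread between cultures. They also take each count as a separate read, and they are too narrow if both ends of a read pair were counted. All 6 basal markers (Krt5, Krt14, Krt17, Acta2, Trp63 and Myh11) were present, with log2 ratios (TNF-α over control) from -0.52 to 0.31. All 6 luminal markers were present too, with log2 ratios from -0.84 to 0.29. The luminal sum went from 3704 CPM without TNF-α to 3224 CPM with it, and the basal sum from 11610 to 10862 CPM. By FACS, the study found mostly luminal cells in untreated colonies grown from basal cells. It also reports a larger share of basal cells with TNF-α. The part of this cell mixture in the ratios was not tested. In bulk libraries, fewer cells of a type and less RNA per cell cannot be told apart.

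Of the 47 interleukin genes compared, 8 (17.0%) were higher with TNF-α and 6 (12.8%) were lower. Over all genes compared, the same rule called 7.39% higher and 5.89% lower. The median log2 ratio was 0.25 for the interleukin genes and 0.0038 for all genes. The higher genes were Il1rl1, Il18r1, Il18rap, Il1rap, Il1rn, Il23a, Il2rg and Il20ra, and the lower ones were Il1f5, Il6ra, Il17b, Il1r2, Il16 and Il4. Most of the higher genes were receptor subunits, as were 29 of the 47 genes compared. Among receptors, 6 of the 29 compared were higher and 1 was lower. Decoy receptors were counted with the antagonists, of which 4 were compared, 1 was higher and 2 were lower, Il1r2 among the lower. Among ligands, 1 of the 11 compared was higher and 2 were lower. Il16, Il34 and Il4i1 were counted apart from these groups, and of these 3 genes, 0 were higher and 1, Il16, was lower. Exons of 20 of the 82 genes overlap another gene, and 2 of the higher and 3 of the lower genes were among them. Whether counting used the strand is not given in the sources used here, so the called genes among them are marked below as uncertain.

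**Figure D1:**
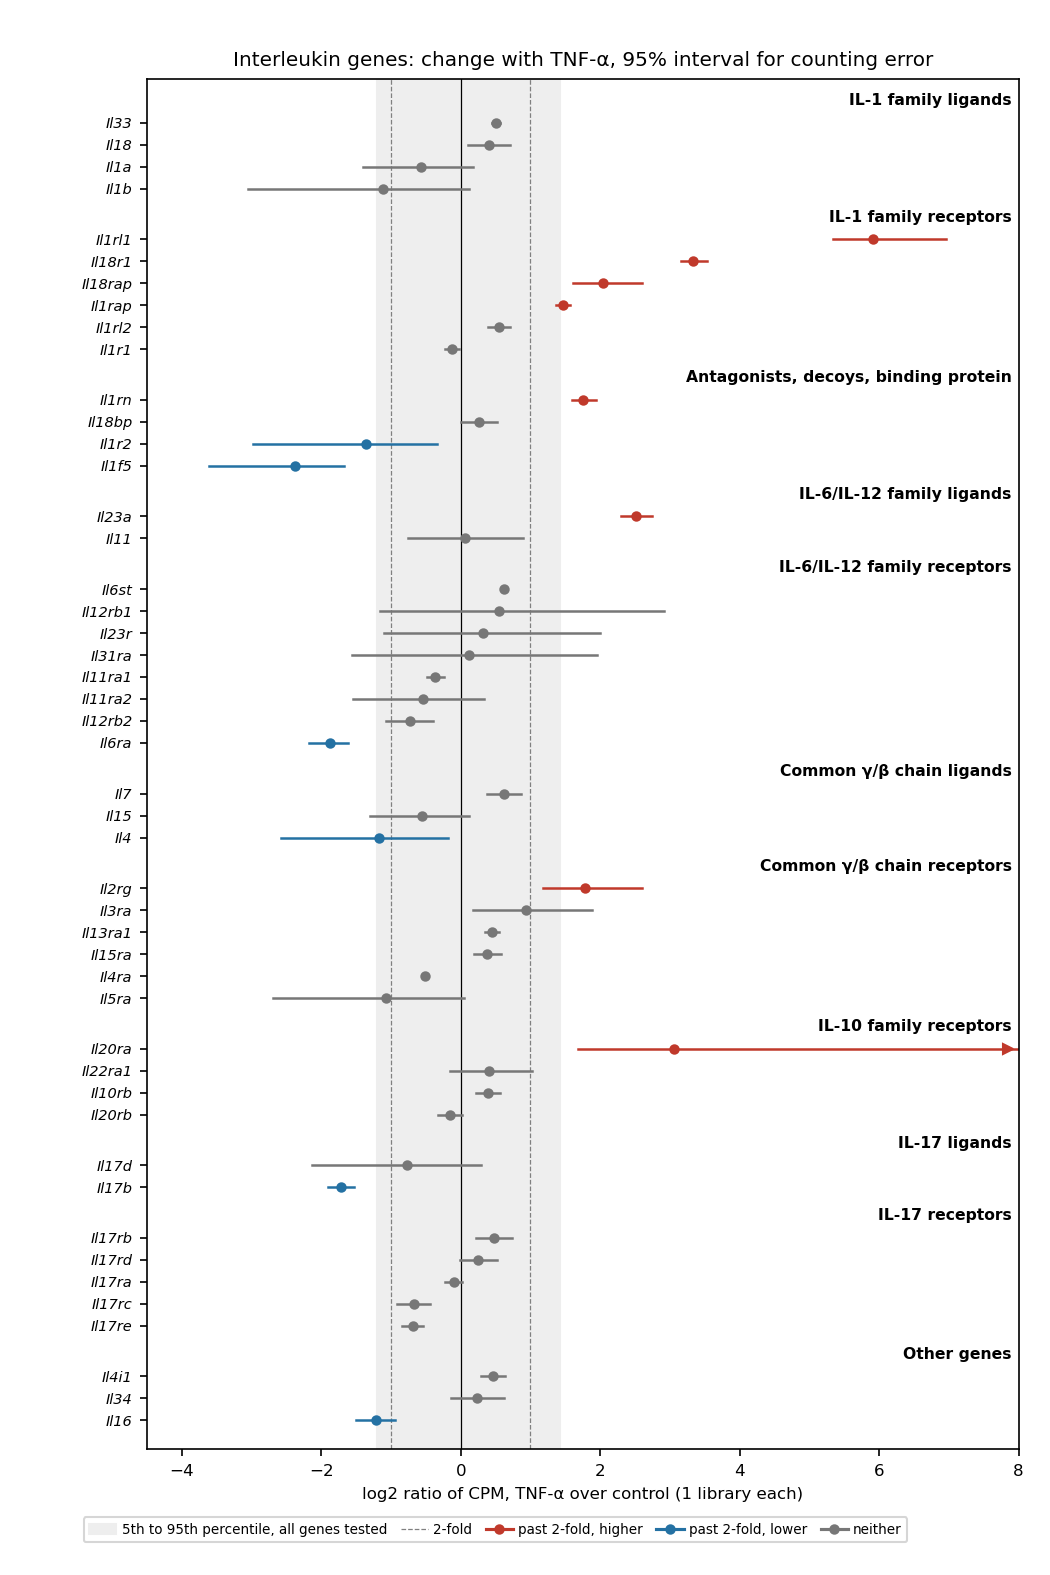
The plot gives the log2 ratio of CPM, TNF-α over control, for the 47 interleukin genes with at least 10 counts, with 1 library per group and bars for the 95% counting interval. Il1rl1 at 5.92 and Il18r1 at 3.33 lie far to the right of the grey band that marks most genes (5th to 95th percentile, -1.20 to 1.42), and the interval of Il20ra has no upper end because its control count is 0.

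The largest changes were in receptors of the IL-1 family. Of the 6 compared, 4 were higher with TNF-α, 0 were lower, and their median log2 ratio was 1.75. The decoy receptor Il1r2, which was lower at -1.36, was counted with the antagonists and is not among these 6. Il1rl1, which encodes ST2, the receptor subunit that binds IL-33, had 14 counts without TNF-α and 1142 with it. This is a 68.1-fold difference without the prior count, and a log2 ratio of 5.92 with it (interval 5.34 to 6.97). By log2 ratio, Il1rl1 was at rank 6 from the top among the 20771 genes. The gene counts do not separate the membrane form of ST2 from its soluble form, which acts as a decoy. Il18r1, the subunit that binds IL-18, had 246 and 2986 counts, which is 10.1-fold and a log2 ratio of 3.33 (3.15 to 3.54). Il18rap, the signalling partner of Il18r1, rose from 42 to 214 counts, a log2 ratio of 2.04 (1.61 to 2.60). Both chains of the IL-18 receptor were thus higher, though at unequal levels. Per length, as RPKM (CPM per kilobase of exon), Il18r1 stood at 8.21 times the level of Il18rap without TNF-α and at 19.6 times with it.

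Il1rap, the chain shared by the receptors for IL-1, IL-33 and IL-36, had 1164 counts in the control library and 3852 with TNF-α, a log2 ratio of 1.47 (1.37 to 1.56). Its exons overlap the opposite-strand gene Gm20319, which had 637 and 2169 counts, so the value of Il1rap is uncertain. Il1r1, the signalling receptor for IL-1α and IL-1β, had 1602 and 1762 counts, a log2 ratio of -0.12 (-0.22 to -0.02). The level of Il1rap relative to Il1r1 therefore went from 0.407 in the control library to 1.22 with TNF-α in RPKM. Il1rl2, the receptor for IL-36, had 512 and 899 counts, and its log2 ratio of 0.55 (0.39 to 0.71) lay under 2-fold. Il1rapl1 had 0 counts in both libraries, and Il1rapl2 had 0 and 2.

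Il1r2, Il1r1, Il1rl2, Il1rl1, Il18r1 and Il18rap lie in this order on the same strand of chromosome 1, from 40074079 to 40551705 in GRCm38. The 3 genes at the far end of the cluster were higher with TNF-α and their neighbours within it were not. The log2 ratios along the cluster were -1.36 for Il1r2, -0.12 for Il1r1, 0.55 for Il1rl2, 5.92 for Il1rl1, 3.33 for Il18r1 and 2.04 for Il18rap. Il1rl1 (40429570 to 40465415) ends 136 bases before Il18r1 (40465552 to 40500854) begins. Of 7 other compared genes in and around the cluster, Slc9a4, next to Il18rap, was higher, with 2 counts in the control library and 14 with TNF-α. The others lay between -0.59 for Slc9a2 and 0.49 for Gm17970.

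**Figure D2:**
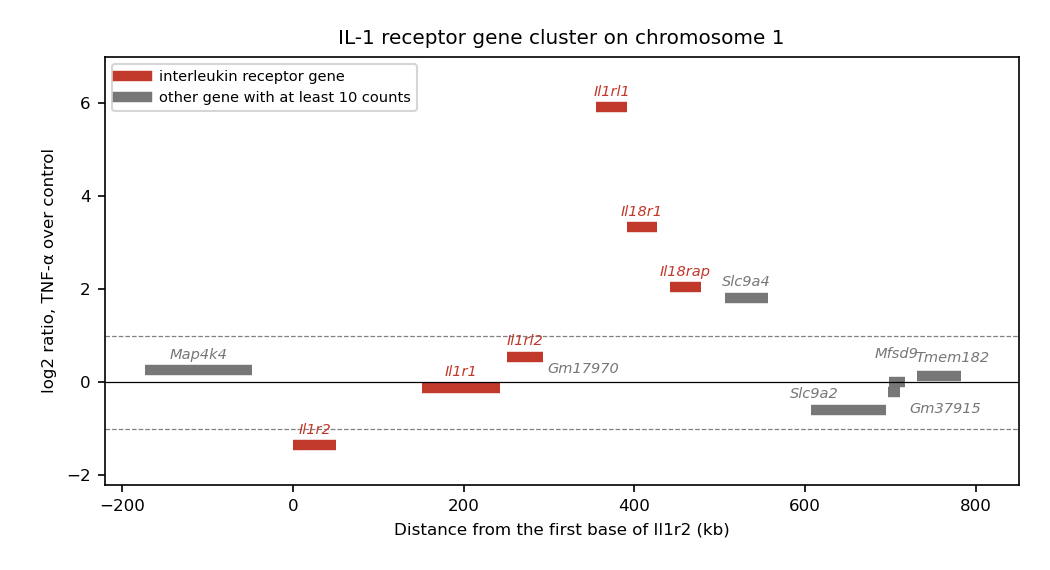
The map shows the genes of the chromosome 1 cluster as bars from start to end, with the distance from the first base of Il1r2 in kb on the horizontal axis and the log2 ratio (TNF-α over control) on the vertical axis. Il1rl1, Il18r1 and Il18rap stand at 5.92, 3.33 and 2.04, while Il1rl2 beside them lies at 0.55, Il1r1 further on at -0.12, and Map4k4, before the cluster, lies at 0.26.

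Sequences before the start sites of these adjacent genes are shown because the genes were higher together. That of Il6 is shown because it carries the letters of the NF-κB consensus, 44 bases before the start. Il12rb2 (1 base before) and Il16 (49 and 48 bases before) also carry them close to a start and are not printed. RefSeq on GRCm38.p6 gave windows from 250 bases before to 50 bases after a start for 65 of the 82 genes, 80 windows in all. The 4 printed here run 5′ to 3′ in the direction of the gene, and capitals mark the NF-κB consensus (in the Il6 window) or the STAT-type motif TTCNNNGAA (in the Il18r1 window). Il1rl1 has windows at chr1:40429320-40429619 and chr1:40439379-40439678, Il18r1 at chr1:40465756-40466055 among others, and Il6 at chr5:30012864-30013163, all on the plus strand.
Il1rl1, first start: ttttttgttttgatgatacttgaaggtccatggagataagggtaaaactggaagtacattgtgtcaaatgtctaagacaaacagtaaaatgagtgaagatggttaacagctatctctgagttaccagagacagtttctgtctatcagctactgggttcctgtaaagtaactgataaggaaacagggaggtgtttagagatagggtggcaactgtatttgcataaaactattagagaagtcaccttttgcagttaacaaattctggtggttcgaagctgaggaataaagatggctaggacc
Il1rl1, second start: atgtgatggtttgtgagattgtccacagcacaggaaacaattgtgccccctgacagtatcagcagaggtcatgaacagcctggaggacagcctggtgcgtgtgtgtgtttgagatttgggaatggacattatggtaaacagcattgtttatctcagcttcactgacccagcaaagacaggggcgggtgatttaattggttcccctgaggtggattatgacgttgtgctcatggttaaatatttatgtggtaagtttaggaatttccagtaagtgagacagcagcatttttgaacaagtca
Il18r1, last start: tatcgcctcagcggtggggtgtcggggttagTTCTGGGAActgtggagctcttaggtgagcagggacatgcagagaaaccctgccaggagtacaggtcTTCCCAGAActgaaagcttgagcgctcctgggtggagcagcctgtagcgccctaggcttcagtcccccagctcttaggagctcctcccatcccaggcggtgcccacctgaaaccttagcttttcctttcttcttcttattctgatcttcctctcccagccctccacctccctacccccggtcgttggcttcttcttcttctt
Il6: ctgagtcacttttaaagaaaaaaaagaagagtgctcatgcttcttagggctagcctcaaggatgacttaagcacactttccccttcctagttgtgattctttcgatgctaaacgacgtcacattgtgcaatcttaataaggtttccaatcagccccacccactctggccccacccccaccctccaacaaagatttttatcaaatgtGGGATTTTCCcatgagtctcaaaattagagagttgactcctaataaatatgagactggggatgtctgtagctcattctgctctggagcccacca

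Searched on both strands, the NF-κB consensus was found in 8 of the 80 interleukin windows (10.0%) and in 8.46% of all 32851 windows. Of the 12 windows of the genes higher with TNF-α, 0 held it, and of the 9 windows of the lower genes, 1 did, in Il16. These 12 windows belong to 7 genes and these 9 to 5 genes, and some windows of the same gene overlap. The motif TTCNNNGAA, which reads the same on both strands, was in 10 of the 80 windows and in 8.30% of all windows. It was in 1 of the 12 windows of the higher genes and in 3 of the 9 windows of the lower genes. The former is the last window of Il18r1, where it stood at 219 and at 152 bases before the start. The other Il18r1 windows and those of Il1rl1 and Il18rap held neither motif. No window was found for Il23a. A match of letters is not a binding site, and a window without one says nothing of sites elsewhere.

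Of the 8 ligand genes of the IL-1 family, 4 were compared and 0 passed 2-fold. Il33, an alarmin kept in the nucleus of epithelial cells, was the ligand with the highest level per length in both libraries. It had 3755 counts in the control library and 6362 with TNF-α, a log2 ratio of 0.50 (0.44 to 0.56), which is 1.42-fold. Il18 had 152 and 241 counts, a log2 ratio of 0.40 (0.11 to 0.71). Il1a had 33 and 26 counts and Il1b had 13 and 6, with log2 ratios of -0.57 (-1.40 to 0.18) and -1.12 (-3.06 to 0.12). For neither did the interval leave out no change, and the exons of each overlap a gene on the opposite strand.

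Il1rn, which encodes the IL-1 receptor antagonist, had 340 counts in the control library and 1384 with TNF-α. It was 3.40-fold higher, a log2 ratio of 1.76 (1.59 to 1.94), and its exons overlap no other gene of the table. Il1f5, the older name of the gene for the IL-36 receptor antagonist, had 60 and 12 counts, a log2 ratio of -2.38 (-3.61 to -1.67). These antagonist genes lie in the same cluster on chromosome 2, where 2 of 6 interleukin genes reached 10 counts, and they changed in opposite directions. Il1f6, Il1f8 and Il1f9, the older names of the IL-36 ligand genes, had between 0 and 4 counts in a library. Il1r2, a decoy receptor for IL-1, had 20 and 8 counts, a log2 ratio of -1.36 (-2.97 to -0.34) that rests on few reads, and the call was lost with counts halved. Il18bp, which encodes a protein that captures IL-18, had 218 and 313 counts, a log2 ratio of 0.26 (0.01 to 0.52), and it overlaps the far more abundant Numa1 on the opposite strand.

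**Figure D3:**
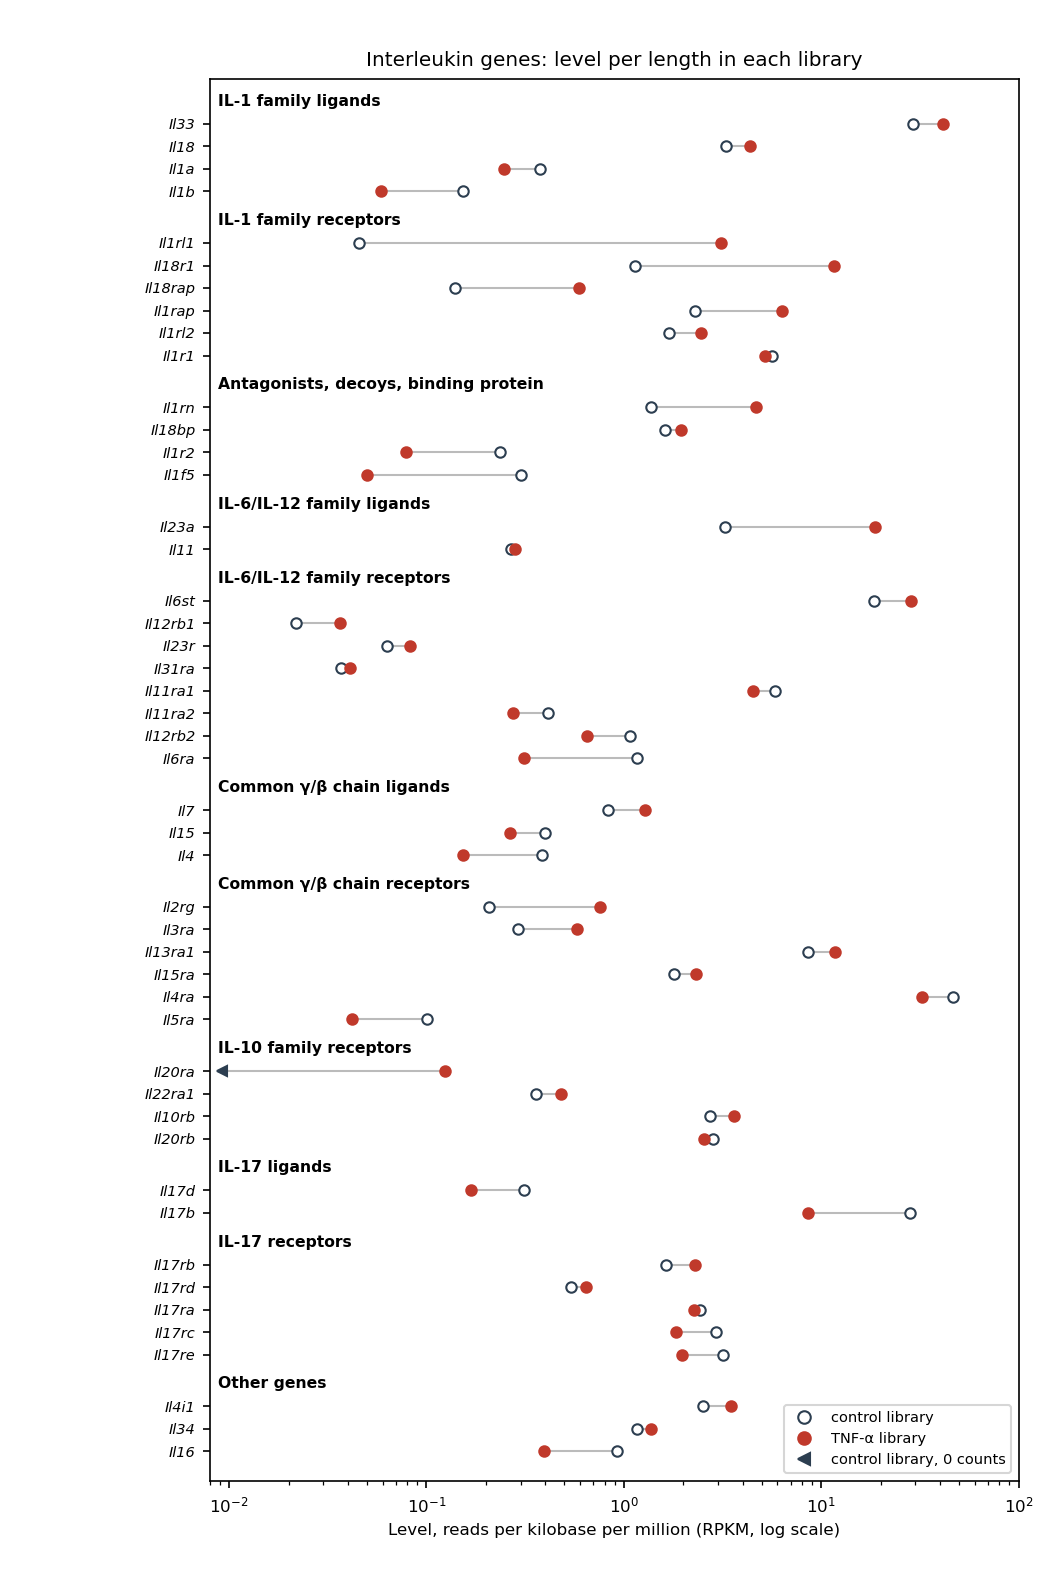
Each row gives the level of an interleukin gene in RPKM on a log axis, with an open circle for control (a triangle at 0 counts) and a filled circle for TNF-α, for the 47 genes with at least 10 counts. Il4ra, Il33 and Il17b lead in the control library at 46.6, 29.2 and 28.2 RPKM, while Il33, Il4ra and Il6st lead with TNF-α at 41.3, 32.5 and 28.6 RPKM.

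In the IL-6 and IL-12 families, the gene of 1 ligand was higher with TNF-α and that of 1 receptor was lower. Il23a, which encodes the p19 subunit of IL-23, had 198 counts in the control library and 1358 with TNF-α. It was 5.73-fold higher, a log2 ratio of 2.51 (2.30 to 2.74), and with 18.7 RPKM it was the ligand gene with the second highest level in the TNF-α library. Il12b encodes p40, the subunit that p19 needs to form IL-23, and it had 0 counts in both libraries. A count of 0 allows up to 3 counts, or 0.0673 CPM for the control and 0.0562 CPM for TNF-α. Il12a also had 0 counts. The receptor of IL-23 was near the floor, with 7 and 11 counts for Il23r and 4 and 8 for Il12rb1.

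Il6, known as an NF-κB target in many cell types, had 4 counts in the control library and 3 with TNF-α, and the interval of its log2 ratio ran from -3.45 to 1.89. A change was not detectable at this depth. Il6ra, the subunit that binds IL-6, had 447 and 144 counts, so it was 3.72-fold lower with TNF-α, a log2 ratio of -1.88 (-2.18 to -1.62). The opposite-strand gene Gm42809, which overlaps its exons, had 107 and 29 counts, and the value of Il6ra is uncertain. Il6st, which encodes the shared signalling chain gp130, had 9216 and 16914 counts, a log2 ratio of 0.62 (0.58 to 0.65). In RPKM, Il6st stood at 16.1 times the level of Il6ra in the control library and at 91.5 times with TNF-α. Adam10 and Adam17, which encode proteases that shed the IL-6 receptor from cells, had log2 ratios of 0.04 and 0.55. Il11 had 24 and 30 counts, and its receptor gene Il11ra1 had 1164 and 1083, a log2 ratio of -0.36 (-0.48 to -0.24). Il11ra1 has a near-identical copy, Il11ra2, with 24 and 19 counts, and its exons overlap Ccl27a.

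Genes for receptors of IL-4 and IL-13 were among the most abundant of the 82. Il4ra, the chain shared by both receptors, had 12466 counts in the control library and 10422 with TNF-α, a log2 ratio of -0.52 (-0.56 to -0.48). Il13ra1, its partner in epithelial cells, had 1422 and 2326 counts, a log2 ratio of 0.45 (0.35 to 0.55). The level of Il4ra relative to Il13ra1 went from 5.42 in the control library to 2.77 with TNF-α in RPKM. Neither gene passed 2-fold, and Il4ra overlaps the opposite-strand gene Gm44876. The ligand Il13 had 3 and 4 counts. Il4 had 21 and 10, a log2 ratio of -1.17 (-2.58 to -0.18) that rests on few reads.

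Il2rg, the common γ chain of the receptors for IL-2, IL-4, IL-7, IL-15 and others, rose from 22 to 96 counts, a log2 ratio of 1.78 (1.19 to 2.61). Its exons overlap Gm20489 on the same strand (10 and 66 counts), and its value is uncertain. Among the chains that pair with it, Il4ra and Il15ra were compared and did not pass 2-fold. Il15ra had 355 and 554 counts, a log2 ratio of 0.38 (0.19 to 0.58), and Il2ra, Il2rb and Il7r had at most 4 counts in a library. Among the ligands, Il15 had 40 and 32 counts. Il7 had 210 and 387, a log2 ratio of 0.62 (0.38 to 0.87), and overlaps the opposite-strand gene Gm16685, which was itself higher (39 and 277 counts).

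In the IL-17 family the ligand gene Il17b was lower with TNF-α. It had 869 counts in the control library and 316 with TNF-α, which is 3.29-fold lower, a log2 ratio of -1.71 (-1.91 to -1.53). At 28.2 RPKM it made up 42.0% of the summed level of the 35 ligand genes in the control library, and 11.3% of it with TNF-α. Il16 and Il34 are not among these 35. Its receptor Il17rb had 200 and 333 counts, a log2 ratio of 0.47 (0.22 to 0.74). Of the 5 IL-17 receptor genes, 0 passed 2-fold, and they ranged from -0.69 for Il17re to 0.47 for Il17rb. Il17ra, the chain shared by the family, had 938 and 1045 counts, a log2 ratio of -0.10 (-0.23 to 0.02). Il17a had 0 counts in both libraries, and Il17c, a ligand made by epithelial cells, had 0 and 7. The exons of Il17b overlap Gm38165 on the opposite strand, with 73 and 15 counts, and its value is uncertain.

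The ligands of the IL-10 family were near the floor. Il10, Il20 and Il22 had 0 counts in both libraries, Il19 had 0 and 4, and Il24 had 0 and 6. Their receptors were read in part. Il10rb, shared by several receptors of the family and overlapping Gm21970 on the same strand, had 465 and 732 counts, a log2 ratio of 0.39 (0.23 to 0.57), and Il20rb had 532 and 570. Il20ra had 0 counts in the control library and 16 with TNF-α, at least 4.45-fold higher when the control is set at the floor of 3 counts. It passed the minimum of 10 counts only through the TNF-α library. Among receptors of the β chain family, Il3ra had 18 and 43 counts, a log2 ratio of 0.93 (0.17 to 1.88), and Il5ra had 16 and 8, one of -1.07 (-2.69 to 0.05). Of the remaining genes, Il16, which encodes the precursor of a chemoattractant for T cells, had 322 and 165 counts, a log2 ratio of -1.21 (-1.50 to -0.95), and its value is uncertain because its exons overlap Stard5 and 2310044K18Rik on the opposite strand. Il34, a ligand of the CSF1 receptor, had 102 and 144 counts. Il4i1, which encodes an amino acid oxidase and not an interleukin, had 459 and 756 counts and shares exons with Nup62.

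Of the 82 genes, 15 had 0 counts in both libraries and 20 had 1 to 9 counts summed, none above 7 in a library. Il2, Il3, Il9, Il21, Il31, Il22ra2 and Il1f10 were among those at 0. Several of the higher receptor genes are also known from leukocytes, and markers of other cell types are given here. Their part in the results was not tested. Of 14 leukocyte markers, Cd3e, Cd3g, Cd8a, Ms4a1, Nkg7, Cpa3 and Mcpt4 had 0 counts in both libraries, and Ptprc, which encodes CD45, had 26 in the control library and 38 with TNF-α. The list summed to 11.6 CPM (control) and 10.2 CPM (TNF-α), and S100a9 gave 454 of its 515 and 468 of its 546 counts. The 10 macrophage markers summed to 13.0 and 9.16 CPM, and the 8 compared had log2 ratios from -0.69 to -0.32. Mertk had the most counts of them (184 and 136) and Lyz2 had 114 and 109, while Adgre1, which encodes F4/80, had 0 and 2. The 8 fibroblast and endothelial markers summed to 379 and 413 CPM, of which Col1a2 gave 207 and 229 CPM. Dcn was higher (184 and 582 counts), and the others had log2 ratios from -0.30 for Kdr to 0.22 for Cdh5. Il18r1 stood at 5.52 CPM in the control library and at 56.0 CPM with TNF-α. CPM do not compare levels between genes of unlike length, and which cells its counts came from was not tested.

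Genes that act with the interleukins were described from lists, whose counts stand against the 7.39% higher and 5.89% lower of all genes compared. Among 7 relatives with other names, Tslp, an epithelial cytokine read through Crlf2 and the IL-7 receptor, rose from 7 to 32 counts, a log2 ratio of 1.69 (0.73 to 3.36). Csf2rb2, a receptor chain for IL-3, was lower, with 14 and 4 counts. Sigirr, an inhibitory relative of the IL-1 receptors, had a log2 ratio of -0.73 (-1.05 to -0.44). Ebi3 had 0 and 9 counts.

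Of 15 genes of IL-1 receptor signalling, 1 was higher, 0 were lower, and the median log2 ratio was 0.07. The higher gene was Irak3, which encodes a brake on this pathway, with 340 and 1054 counts, a log2 ratio of 1.37 (1.19 to 1.55). Myd88 had a log2 ratio of 0.47 (0.35 to 0.60), and Peli2 was lowest at -0.26. Of 11 genes for processing and release of IL-1 (α or β) and IL-18, 7 were compared, and 2 were higher and 0 lower. Casp4, an inflammatory caspase, had 94 and 573 counts, a log2 ratio of 2.33 (2.03 to 2.68), and Gsdmd, which forms the pore of pyroptosis, had 61 and 425, a log2 ratio of 2.51 (2.15 to 2.95). Casp1, which cleaves IL-1β and IL-18, had a log2 ratio of 0.38 (0.28 to 0.49), and Capn1 was lowest at -0.38.

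Of 17 genes of JAK-STAT signalling, 1 was higher and 1 was lower, with a median of 0.10. Stat4 had 30 and 104 counts, a log2 ratio of 1.48 (0.94 to 2.17). Stat5a had 5462 and 2942 counts, a log2 ratio of -1.15 (-1.22 to -1.09). Stat3, the factor that gp130 activates, had a log2 ratio of 0.55 (0.52 to 0.58), while Socs3, its feedback inhibitor, had one of -0.66 (-0.73 to -0.59). Of 9 genes of IL-17 signalling, 0 passed 2-fold, from -0.51 for Traf5 to 0.99 for Ikbke.

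**Figure D4:**
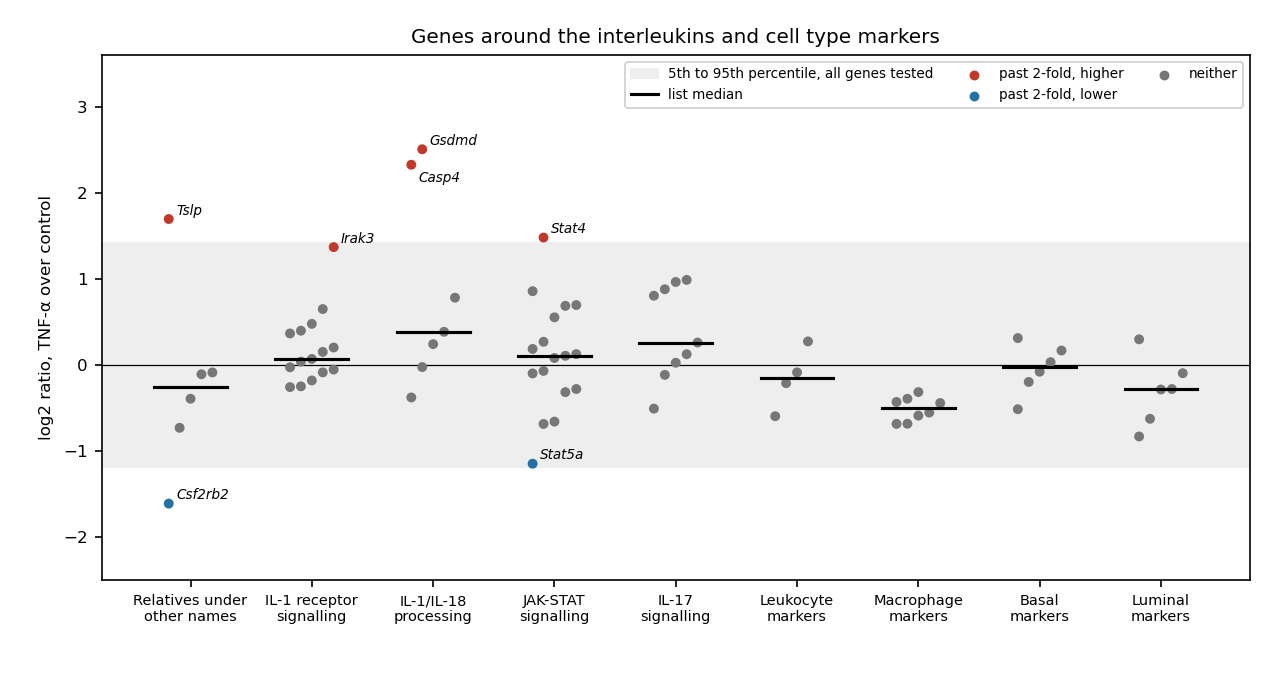
The plot gives the log2 ratio (TNF-α over control) for the compared genes of 9 lists, with a black line at each list median and genes past 2-fold named. Gsdmd and Casp4 lie highest at 2.51 and 2.33, and the 8 macrophage markers compared all lie below 0.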

How the data were processed

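RNA-seq libraries were made from 3D cultures of sorted mouse mammary basal cells, 1 untreated (control) and 1 with TNF-α. The series title calls the assay a microarray, but its type and table are those of sequencing. The authors deposited counts of reads per gene, not normalized, with exon coordinates and summed exon lengths. The labels name GRCm38 and mm10, and the aligner, counting tool, annotation and strand setting are not given in the sources used here. All 82 names occur in GENCODE M21 as protein coding genes, 72 with the same coordinates.

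Library sizes were scaled by TMM in edgeR (version 4.0.16, R 4.3.3). The log2 ratio used a prior count of 2 and genes with at least 10 summed counts. Calls needed 2-fold and a 95% Clopper-Pearson interval without 0, not adjusted for the number of genes. The floor for a count of 0 was 3 counts. RPKM used TMM sizes. Without replicates, no quasi-likelihood fit in edgeR was possible. Intervals cover counting error only. No source names molecular identifiers, so PCR copies of a fragment count as separate reads, which makes the intervals too narrow where such copies occur. Low counts were mostly even (74.4% of control counts from 1 to 20), as when both ends of a pair are counted, and halved counts were tried. If both ends were counted, the printed intervals are too narrow, and those that end close to 0 may include it. A count of 10 is 0.224 CPM (control) and 0.187 CPM (TNF-α).

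Named were interleukin genes past 2-fold, a set of ligands and receptors fixed by name, the genes with the highest levels, and the highest, lowest and called genes of the lists. Others are named for the subunit or ligand they pair with, chosen after their values were seen. The lists of relatives and of JAK-STAT signalling each leave out 1 gene that is not reported here. Members and lists were chosen with earlier results of these data known. Other alternatives were total counts, upper quartile scaling, DESeq2 (version 1.42.0) size factors, other filters, prior counts, folds and interval rules, and TPM. Intervals came from scipy 1.17.1, tables from pandas 2.3.3 with numpy 2.4.6, and plots from matplotlib 3.10.9 (Python 3.11.15).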

Additional observations from a re-analysis of the deposited data

How the results depend on the processing

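No paired analysis was possible because a group held a single library, so leaving one out was not possible either. Scaled by total counts, by upper quartile or by DESeq2 size factors, 8 genes were higher and 6 lower, as in the report. With at least 1 CPM in a library, 7 of 33 were higher and 4 lower, against 5.36% and 4.22% of all genes. With halved counts these were 7 and 4 of 42, against 5.9% and 4.54% of all genes, without Il20ra, Il4 and Il1r2, which rest on few reads. With 4-fold in place of 2-fold, 5 were higher and 1 was lower, because the threshold is stricter, against 2.6% and 1.65% of all genes. An interval wholly beyond 2-fold kept all 8 higher genes and 3 of the lower ones, Il1f5, Il6ra and Il17b, against 3.74% and 2.7% of all genes. Without the genes whose exons overlap another gene, 6 of 32 were higher (18.8%) and 3 lower (9.4%), with fewer genes compared. This alternative was chosen after seeing the data. The shares over all genes, 7.39% and 5.89%, still include genes with overlapping exons, so the 2 sets are not filtered alike. The median log2 ratio lay between 0.18 and 0.39 under all settings tried. All 357 values of single genes under 8 alternatives stayed within their counting intervals. Filters leave a ratio as it is and the scalings differ little, so most of these values could hardly leave the intervals. Genes that a setting dropped have no value there. With 1 library per group, the spread between cultures was not measured, and it limits every ratio above.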
